A study of Mus musculus with 20 samples.

Results

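Sbk2, Sbk3, Mybphl, Clca3a1 and Clca3a2 are 5 of the 55367 genes listed in an RNA-sequencing study of the newborn mouse heart. They were chosen by symbol because earlier results of the same data showed expression restricted to the left atrium that either changed or held in high oxygen. Their atrial response to oxygen and their difference between chambers are therefore described here without a test, and only their response in the left ventricle is tested. All 5 were among the 16598 genes that passed the expression filter. The study sequenced polyadenylated RNA of pups of the strain C57BL/6J, for which the labels name no altered allele. The groups were hyperoxic left atrium and hyperoxic left ventricle, from pups kept in 100% oxygen between birth and postnatal day 4, and room-air left atrium and room-air left ventricle, from pups kept in 21% oxygen over the same days. Each of the 4 groups held 5 libraries, each from an individual mouse, and in all groups the nursing dams alternated between the oxygen levels daily.

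SBK kinases are serine/threonine kinases named after an SH3-binding relative, and Sbk2 has been described as an atrium-enriched regulator of sarcomere integrity in cardiomyocytes. Mybphl encodes a short relative of the myosin-binding proteins that sits on the thick filament of atrial muscle. CLCA proteins are secreted or membrane-bound proteins with a metalloprotease domain that regulate calcium-activated chloride currents and cell adhesion, and in the mouse several of their genes lie side by side.

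The name atrium-restricted described 4 of the 5 genes. In room air the log2 difference between left atrium and left ventricle was 5.87 for Sbk2, 6.79 for Sbk3, 5.46 for Mybphl and 6.51 for Clca3a2, but 1.38 for Clca3a1. These values placed Sbk3, Clca3a2, Sbk2 and Mybphl at ranks 12, 15, 17 and 22 of the 16598 genes, and Clca3a1 at rank 1402. Clca3a1 averaged 31.0 ± 5.69 CPM (counts scaled to library size, with TMM factors; SD, n = 5) in room-air ventricles, so it was expressed in both chambers.

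The libraries held 26510081 to 38244117 counts each. More Y-linked than Xist reads were found in hyperoxic atrium 2, in hyperoxic ventricles 2 and 6 and in all 10 room-air libraries, so the oxygen groups also differed in the sex of the pups. Hyperoxic atria 2 and 4 and room-air ventricle 4 were tilted towards short transcripts, with slopes of log2 CPM on log2 exon length of -0.29 to -0.22, against -0.07 to 0.13 in the remaining 17. Myl7, which encodes the atrial regulatory light chain, ranged from 2.66 to 128 CPM in hyperoxic ventricles and from 19.5 to 530 CPM in room-air ventricles, and atrial libraries held 4330 to 11400 CPM. The ventricular light chain Myl2 reached 328 CPM in room-air atrium 1, above the other atria. In whole tissue, fewer cells of a type and less RNA per cell cannot be told apart.

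The genes lay at 3 loci. On GRCm38 Sbk2 occupied chr7:4940512-4964406 and Sbk3 chr7:4965260-4971168, both on the minus strand with 853 bases between them. Mybphl occupied chr3:108364911-108380057 on the plus strand. Clca3a1 (chr3:144729677-144760977) and Clca3a2 (chr3:144796559-144819494) lay on the minus strand, 35581 bases apart. Exons of Mybphl, Clca3a1 and Clca3a2 shared 89, 170 and 241 bases with the opposite-strand genes Gm12522, Gm34866 and Gm43240, whose reads could be told apart only if the counting used strand, which the sources used here do not give. Sbk2 and Sbk3 shared none. The coding sequences of Sbk2 and Sbk3 were 60.5% identical and shared no 50-base stretch. Those of Clca3a2 and Clca3a1 were 97.1% identical over 2706 aligned bases, and 864 stretches of 50 bases, 21.77% of those in Clca3a2 and 22.18% of those in Clca3a1, occurred in both. Reads from these stretches fit both genes, so the split of reads between them is less certain than for the other 3.

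Promoters are shown for a gene that was lower in the hyperoxic atrium (Sbk2) and for the genes with overlapping groups there (Mybphl and Clca3a1). Each window holds 250 bases before and 50 after the RefSeq start on GRCm38.p6, written 5′ to 3′ on the gene's own strand. Capitals mark AGATAA, the letters searched for GATA factors. The 5 motifs searched on both strands, which do not overlap in these windows, were AGGTGTG for T-box factors, AGATAA for GATA factors, CAAGTG for NKX2-5, CATTCC for TEAD factors and TATAAA for the TATA box, and only AGATAA was found in the windows shown. The windows are those of Clca3a1 (chr3:144760928-144761227, minus strand), Mybphl (chr3:108364661-108364960, plus strand) and Sbk2 (chr7:4964357-4964656, minus strand).
Clca3a1: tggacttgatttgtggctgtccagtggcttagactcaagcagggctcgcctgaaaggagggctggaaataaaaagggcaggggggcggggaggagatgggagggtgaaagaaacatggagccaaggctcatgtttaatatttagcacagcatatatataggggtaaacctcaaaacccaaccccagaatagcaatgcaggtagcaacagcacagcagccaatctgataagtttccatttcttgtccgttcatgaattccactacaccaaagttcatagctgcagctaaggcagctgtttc
Mybphl: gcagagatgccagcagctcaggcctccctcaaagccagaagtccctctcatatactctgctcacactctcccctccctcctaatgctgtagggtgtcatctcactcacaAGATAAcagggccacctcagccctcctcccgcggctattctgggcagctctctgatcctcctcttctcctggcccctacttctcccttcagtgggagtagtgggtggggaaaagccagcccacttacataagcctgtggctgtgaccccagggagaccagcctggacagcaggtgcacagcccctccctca
Sbk2: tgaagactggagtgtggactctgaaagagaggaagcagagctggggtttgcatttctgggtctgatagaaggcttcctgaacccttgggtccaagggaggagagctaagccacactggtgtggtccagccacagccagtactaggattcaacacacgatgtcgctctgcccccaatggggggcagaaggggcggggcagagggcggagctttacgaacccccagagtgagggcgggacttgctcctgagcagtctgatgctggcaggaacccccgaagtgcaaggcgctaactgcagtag

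AGATAA began at base -141 from the start of Mybphl, and 11.2% of 32851 promoters of the same length held it on either strand. The other motifs occurred in 5.8% (T-box), 13.6% (NKX2-5), 14.7% (TEAD) and 13.6% (TATA box) of these promoters. A match is a description of letters and not a binding site. G and C made up 48.0% of the Clca3a1 window, 59.0% of that of Mybphl and 58.7% of that of Sbk2, with a median of 52.7% over all promoters. The RefSeq start of Sbk3 lay 207 bases inside the gene as drawn by GENCODE, so its window is not printed.

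The first comparison asked how the genes stood in the left atrium after hyperoxia. Sbk2, Sbk3 and Clca3a2 were 6.11-fold, 11.3-fold and 12.9-fold lower in hyperoxic than in room-air atria, while Mybphl and Clca3a1 had overlapping groups and nearly equal means. Sbk2 measured 24.2, 42.0, 20.5, 35.6 and 36.3 CPM in hyperoxic atria 1 to 5, against 155, 206, 192, 203 and 214 CPM in room-air atria. Every hyperoxic atrium was below every room-air atrium, and the means of 31.7 ± 9.03 and 194 ± 23.3 CPM (SD, n = 5) differed by log2 -2.61 (SE 0.29), 6.11-fold lower in hyperoxia. Sbk3 measured 39.4, 64.1, 36.1, 68.8 and 57.2 CPM in hyperoxic atria, against 517, 560, 609, 621 and 695 CPM in room-air atria. The groups were again apart, with means of 53.1 ± 14.7 and 601 ± 67.1 CPM and a log2 difference of -3.50 (SE 0.48), 11.3-fold lower in hyperoxia. In this contrast 43.9% of the genes tested passed at an adjusted p under 0.05, and 19.3% had hyperoxic atria all below room-air atria, which 3 of the 5 genes did.

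Sbk3 was reduced more than its neighbour within each library, a measure that does not depend on library scaling. There were 1.52 to 1.93 Sbk3 reads per Sbk2 read in hyperoxic atria and 2.72 to 3.35 in room-air atria, and these ranges did not overlap. Both kinases were also lower relative to Myl7, a single atrial muscle gene. Per 100 reads of Myl7, hyperoxic atria held 0.349 to 0.664 Sbk2 reads, against 2.23 to 3.27 in room-air atria. For Sbk3 these values were 0.564 to 1.05 in hyperoxic atria and 7.35 to 10.4 in room-air atria. Hyperoxic atrium 2, which had more Y-linked than Xist reads as all room-air atria did, held 42.0 CPM of Sbk2, 64.1 CPM of Sbk3 and 6.06 CPM of Clca3a2, each below all room-air atria. That library was also tilted towards short transcripts and held 265 Xist reads, against 1 to 4 in room-air atria. The part of sex in these levels was not tested.

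Mybphl, the thick filament gene, had nearly equal means at both oxygen levels. It measured 367, 577, 406, 534 and 408 CPM in hyperoxic atria, against 433, 432, 458, 531 and 475 CPM in room-air atria. The groups overlapped on both sides, with means of 459 ± 91.3 and 466 ± 40.9 CPM and a log2 difference of -0.02 (SE 0.61). This SE comes from the fit over all 4 groups, in which the ventricles varied widely. Its spread was wider in hyperoxia, and the highest values, in atria 2 and 4, were those of the libraries tilted towards short transcripts. Their part in the spread was not tested. Relative to Myl7 the ranges overlapped too, with 5.08 to 8.5 Mybphl reads per 100 Myl7 reads in hyperoxic atria and 6.24 to 7.09 in room-air atria.

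Of the chloride channel regulators, Clca3a2 was lower in hyperoxia and Clca3a1 was not. Clca3a2 measured 12, 6.06, 9.06, 4.50 and 10.3 CPM in hyperoxic atria, against 98.7, 123, 104, 92.2 and 124 CPM in room-air atria. All hyperoxic atria were below all room-air atria, with means of 8.38 ± 3.07 and 108 ± 14.2 CPM and a log2 difference of -3.69 (SE 0.32), 12.9-fold lower. Clca3a1 measured 106, 64.4, 86.4, 51.2 and 97.8 CPM in hyperoxic atria, against 77.9, 90.1, 73.4, 79.2 and 81.1 CPM in room-air atria. These groups overlapped, with means of 81.1 ± 22.8 and 80.3 ± 6.16 CPM and a log2 difference of 0.01 (SE 0.15). The lowest hyperoxic values of both genes were those of atria 2 and 4, the tilted libraries.

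The ratio of the pair separated the atria by oxygen. Hyperoxic atria held 0.088 to 0.113 Clca3a2 reads per Clca3a1 read, against 1.17 to 1.53 in room-air atria. Clca3a2 thus outnumbered its near-identical neighbour in every room-air atrium and was outnumbered by it in every hyperoxic atrium. In ventricles the ratio was 0.0119 to 0.0315 in hyperoxia and 0.00292 to 0.0817 in room air, below all atria. The tilted hyperoxic atria 2 and 4 had the lowest ratios of their group, 0.0941 and 0.088, against 0.105 to 0.113 in the other 3.

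**Figure D1:**
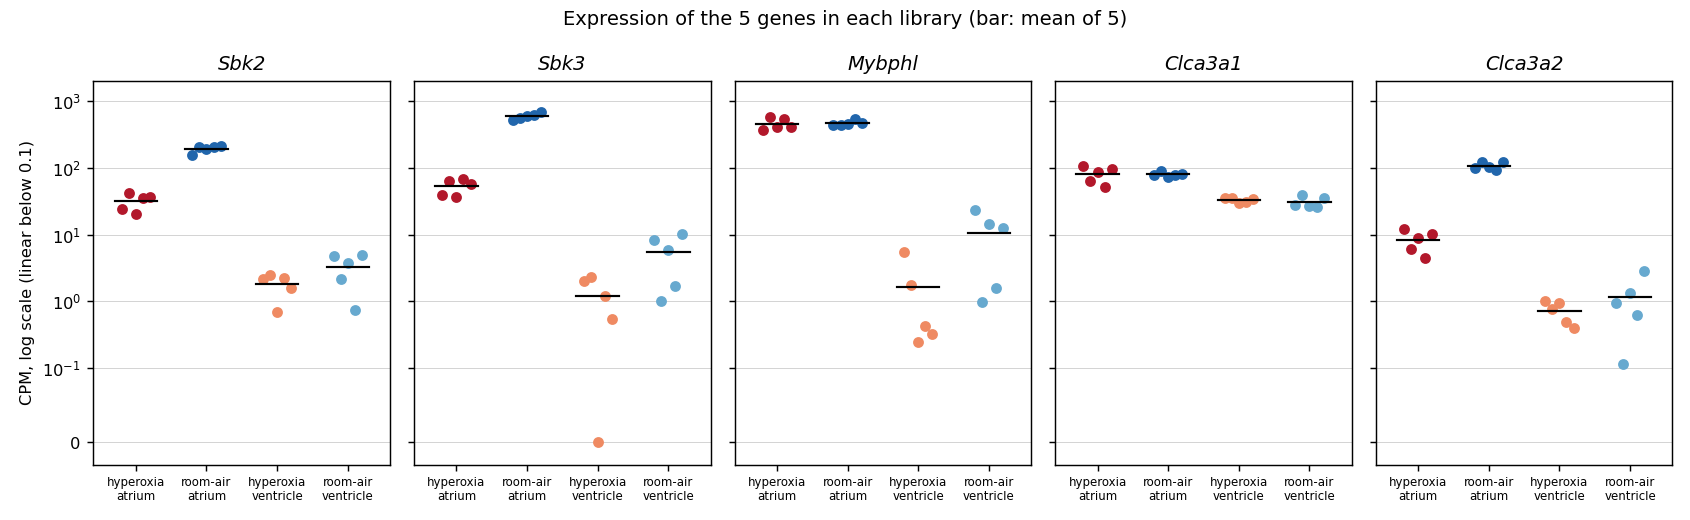
Expression of Sbk2, Sbk3, Mybphl, Clca3a1 and Clca3a2 in each of the 20 libraries, in CPM on a log axis that is linear below 0.1, with 1 point per library and a bar at the mean of 5. In the atria Sbk2, Sbk3 and Clca3a2 are lower in hyperoxia with no overlap, while Mybphl and Clca3a1 overlap. Sbk3 has 0 counts in hyperoxic ventricle 4.

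**Figure D2:**
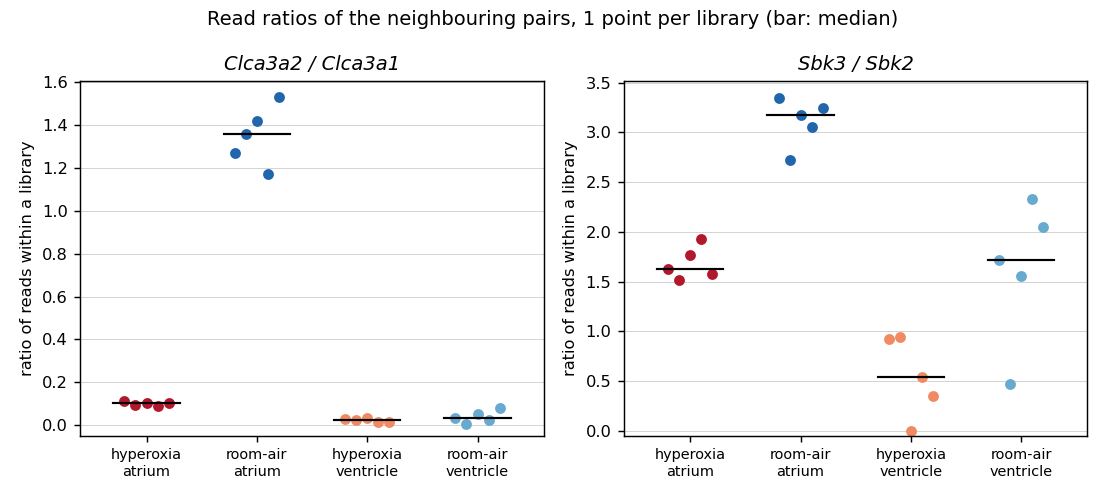
Reads of Clca3a2 per read of Clca3a1 (left) and of Sbk3 per read of Sbk2 (right) within each library, on linear axes, with 1 point per library and a bar at the median. Hyperoxic atria sit at 0.088 to 0.113 on the left, against 1.17 to 1.53 in room-air atria, and at 1.52 to 1.93 on the right, against 2.72 to 3.35 in room-air atria.

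The order of the genes by level per kilobase of exon differed between the atrial groups. In hyperoxic atria Mybphl led at 359 ± 71.6 CPM per kb, followed by Clca3a1 at 20.8 ± 5.85, Sbk3 at 16.6 ± 4.59, Sbk2 at 10.1 ± 2.87 and Clca3a2 at 2.11 ± 0.771 (SD, n = 5). The ranges of Clca3a1, at 13.1 to 27.1 CPM per kb, and Sbk3, at 11.3 to 21.5, overlapped, as did those of Sbk3 and Sbk2. In room-air atria Mybphl led at 365 ± 32.0 CPM per kb, followed by Sbk3 at 188 ± 21.0, Sbk2 at 61.6 ± 7.39, Clca3a2 at 27.2 ± 3.58 and Clca3a1 at 20.6 ± 1.58. There no neighbours in the order had overlapping ranges, although the lowest Clca3a2 library, at 23.2 CPM per kb, came close to the highest Clca3a1 library, at 23.1.

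Between the chambers all 5 genes were higher in every left atrium than in every left ventricle at both oxygen levels. Such a pattern was shown by 16.6% of all genes tested in hyperoxia and 25.1% in room air. In hyperoxia the log2 difference of atrium minus ventricle was 4.09 for Sbk2 (SE 0.34), 5.41 for Sbk3 (SE 0.57), 8.05 for Mybphl (SE 0.87), 3.53 for Clca3a2 (SE 0.40) and 1.29 for Clca3a1 (SE 0.15). In room air the values were 5.87 (SE 0.35), 6.79 (SE 0.57), 5.46 (SE 0.75), 6.51 (SE 0.40) and 1.38 (SE 0.15) in the same order of genes. The chamber gap of Sbk2, Sbk3 and Clca3a2 was thus smaller in hyperoxia and that of Mybphl larger, but these comparisons share their libraries with those above and the difference between the gaps was not tested. Against 5.50 CPM in hyperoxic ventricle 1, the other hyperoxic ventricles held 0.247 to 1.74 CPM of Mybphl, and without ventricle 1 its chamber difference in hyperoxia was 9.39.

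The next comparison asked whether the levels of these RNAs in the left ventricle differed after hyperoxia. The choice of the genes did not name this difference. It did use their lower level in ventricle than in atrium, so the p-values below are not fully independent of the choice. Sbk3 and Mybphl passed the test as lower, Sbk2, Clca3a2 and Clca3a1 did not pass, and all 5 genes had overlapping groups. In this contrast 10.9% of all genes tested passed, 5.28% as lower and 5.64% as higher, and 12.4% had groups that did not overlap. By log2 difference Sbk3 and Mybphl ranked 63 and 27 from the lowest of 16598 genes.

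Sbk3 had 2.0, 2.36, 0, 1.2 and 0.548 CPM in hyperoxic ventricles 1, 2, 4, 5 and 6, against 8.20, 1.02, 5.85, 1.73 and 10.3 CPM in room-air ventricles 1 to 5. Room-air ventricles 2 and 4 lay within the hyperoxic range. The log2 difference was -2.12 (SE 0.57, adjusted p = 0.025 by edgeR's quasi-likelihood F-test with Benjamini-Hochberg adjustment). Mybphl had 5.50, 1.74, 0.247, 0.422 and 0.329 CPM in hyperoxic ventricles, against 23.4, 0.987, 14.5, 1.60 and 12.4 CPM in room-air ventricles. The same room-air ventricles, 2 and 4, lay within the hyperoxic range, and the log2 difference was -2.62 (SE 0.75, adjusted p = 0.035 by the same edgeR test).

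Sbk2 had 2.18, 2.52, 0.699, 2.21 and 1.57 CPM in hyperoxic ventricles, against 4.76, 2.16, 3.76, 0.739 and 5.01 CPM in room-air ventricles, and a log2 difference of -0.83 (SE 0.35, adjusted p = 0.12, edgeR). Without room-air ventricle 4, its lowest room-air library, the difference was -1.08 and passed at an adjusted p of 0.031 (edgeR). Clca3a2 had 1.02, 0.774, 0.945, 0.487 and 0.402 CPM in hyperoxic ventricles, against 0.937, 0.114, 1.33, 0.616 and 2.86 CPM in room-air ventricles, with a log2 difference of -0.70 (SE 0.48, adjusted p = 0.33, edgeR) that was -0.07 without room-air ventricle 5 (adjusted p = 0.93). Clca3a1 differed least, with 36.0, 35, 30.0, 31.2 and 33.7 CPM in hyperoxic ventricles, against 27.8, 38.9, 27.0, 26.1 and 35 CPM in room-air ventricles, and a log2 difference of 0.10 (SE 0.15, adjusted p = 0.69, edgeR).

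Myl7 also varied from ventricle to ventricle, in part with these values. It had 128, 48.5, 6.95, 2.66 and 8.78 CPM in hyperoxic ventricles, against 530, 19.5, 310, 71.5 and 227 CPM in room-air ventricles, with a log2 difference of -2.57 (SE 0.88, adjusted p = 0.065, edgeR). Room-air ventricles 1, 3 and 5, the 3 highest of the 10 ventricles in Myl7, were also the 3 highest in Sbk2, Sbk3 and Mybphl. Over each group's ventricles there were 4.27 Mybphl reads per 100 Myl7 reads in hyperoxia and 4.58 in room air, although hyperoxic ventricle 5 alone held 15.9. For Sbk3 these ratios were 2.99 in hyperoxia and 2.34 in room air, and for Sbk2 4.42 and 1.42. They are ratios of pooled reads, and hyperoxic ventricle 1 held 4270 of the 6013 Myl7 reads of its group. By library the Sbk3 ratio ran from 0 to 45.1 in hyperoxia and from 1.55 to 5.26 in room air. The Sbk2 ratio ran from 1.71 to 82.9 in hyperoxia and from 0.899 to 11.1 in room air. Hyperoxic ventricle 5, the lowest in Myl7, held 2.21 CPM of Sbk2, within a group range of 0.699 to 2.52. Clca3a1 did not follow Myl7. With log2 Myl7 as a covariate among the ventricles, the log2 difference was -0.53 for Sbk3 (adjusted p = 0.73) and -0.08 for Mybphl (adjusted p = 0.93) in edgeR. Neither passed, but in a fit on the ventricles alone neither passed without Myl7 (adjusted p = 0.088 and 0.14, edgeR). Myl7 had a log2 difference of -2.57 itself, so the covariate fit cannot separate Myl7 from oxygen. Myl4, which encodes a further atrial light chain, fell to 51.9 ± 46.9 CPM in hyperoxia, against 222 ± 171 CPM in room-air ventricles (log2 -2.10, SE 0.54, adjusted p = 0.021, edgeR), a call lost in 11 of 33 other settings. Because Myl4 was added after its values were seen, its p-value is only a description. The summed level of the 7 atrial cardiomyocyte markers was 265 to 890 CPM in hyperoxic ventricles and 1080 to 2000 CPM in room-air ventricles, and none of these markers was at 0 in all libraries of a group. Singly, 1 of the 7 rose, 2 fell and 4 did not pass, and each had overlapping ventricular groups.

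The calls for Sbk3 and Mybphl in the ventricle were near the threshold. Leaving out any 1 of several libraries lost them, while the differences stayed negative (-2.45 to -1.75 and -3.96 to -2.11). Sbk3 no longer passed without hyperoxic ventricle 5 or 6 or without room-air ventricle 1 or 5, at adjusted p-values of 0.061, 0.060, 0.055 and 0.057 (edgeR). Mybphl no longer passed without any one of hyperoxic ventricles 2, 4, 5 and 6 or of room-air ventricles 1, 3 and 5, at adjusted p-values of 0.053 to 0.086 (edgeR).

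**Figure D3:**
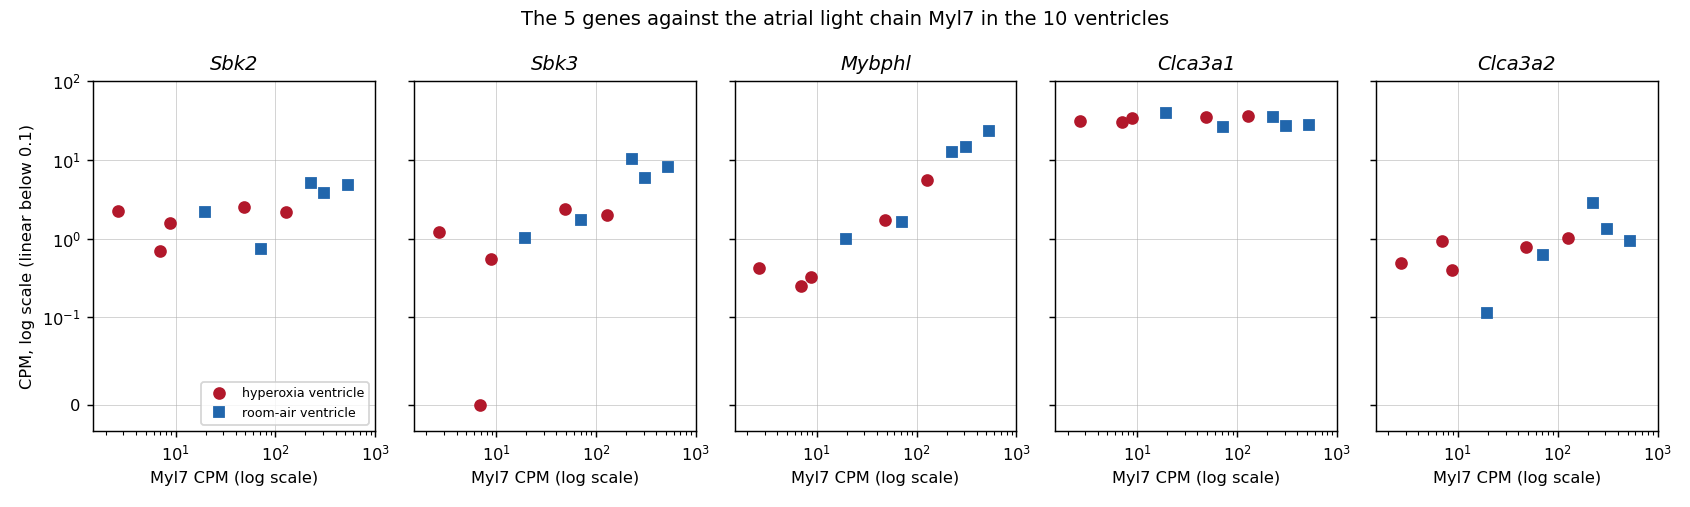
CPM of each of the 5 genes (vertical, log axis that is linear below 0.1) against CPM of the atrial light chain Myl7 (horizontal, log axis) in the 10 ventricles, with circles for hyperoxia and squares for room air. Mybphl runs along Myl7 across both groups, and Clca3a1 stays between 26.1 and 38.9 CPM at every Myl7 level.

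Neighbouring protein-coding genes were examined in the hyperoxic atrium, where 43.9% of all genes tested passed. With that share, calls of neighbours cannot show whether a locus moved as a whole. Next to Sbk3, Zfp579, which encodes a zinc finger protein, fell to 74.8 ± 12.2 CPM in hyperoxic atria, against 261 ± 20.5 CPM in room-air atria (log2 -1.80, SE 0.13, adjusted p = 7.9e-10, edgeR). Zfp579 was also higher in left atrium than in left ventricle in room air, 9.94-fold (log2 3.31, SE 0.14, adjusted p = 3.6e-14, edgeR), and fell slightly in hyperoxic ventricles (log2 -0.44, SE 0.13, adjusted p = 0.035, edgeR), a call lost in 11 of 33 other settings. Ssc5d, a secreted scavenger receptor whose gene overlaps the end of Sbk2 in position, fell as well (log2 -1.08, SE 0.17, adjusted p = 1.9e-05, edgeR), though not with length slope and Y-linked share as covariates (adjusted p = 0.061). Nat14 (log2 -0.38, SE 0.18, adjusted p = 0.082) and Fiz1 (log2 0.02, SE 0.07, adjusted p = 0.81), farther out, did not pass the edgeR test, although Nat14 passed in 7 of 32 other settings, with values of -0.75 to -0.08 over all of them.

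Around Mybphl the neighbours moved in opposite directions while Mybphl itself did not stand apart. Psrc1, which encodes a spindle protein induced by p53, rose to 47.9 ± 5.08 CPM in hyperoxic atria, against 14.0 ± 2.94 CPM in room-air atria (log2 1.78, SE 0.16, adjusted p = 1.4e-08, edgeR). Sort1, the sorting receptor sortilin, fell by 0.98 on the log2 scale (SE 0.10, adjusted p = 1.5e-07, edgeR), and the cadherin Celsr2 by 1.23 (SE 0.20, adjusted p = 3.7e-05, edgeR). The proteasome subunit Psma5 rose by 0.53 (SE 0.14, adjusted p = 0.0042, edgeR) but this call was lost without the 3 tilted libraries (0.22, adjusted p = 0.059), with length slope as a covariate (0.15, adjusted p = 0.13) and with Y-linked share added to it (0.02, adjusted p = 0.91). Beside the CLCA pair, Sh3glb1 (log2 0.16, SE 0.09) and Selenof (log2 0.17, SE 0.10) did not pass (adjusted p = 0.17 each, edgeR).

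**Figure D4:**
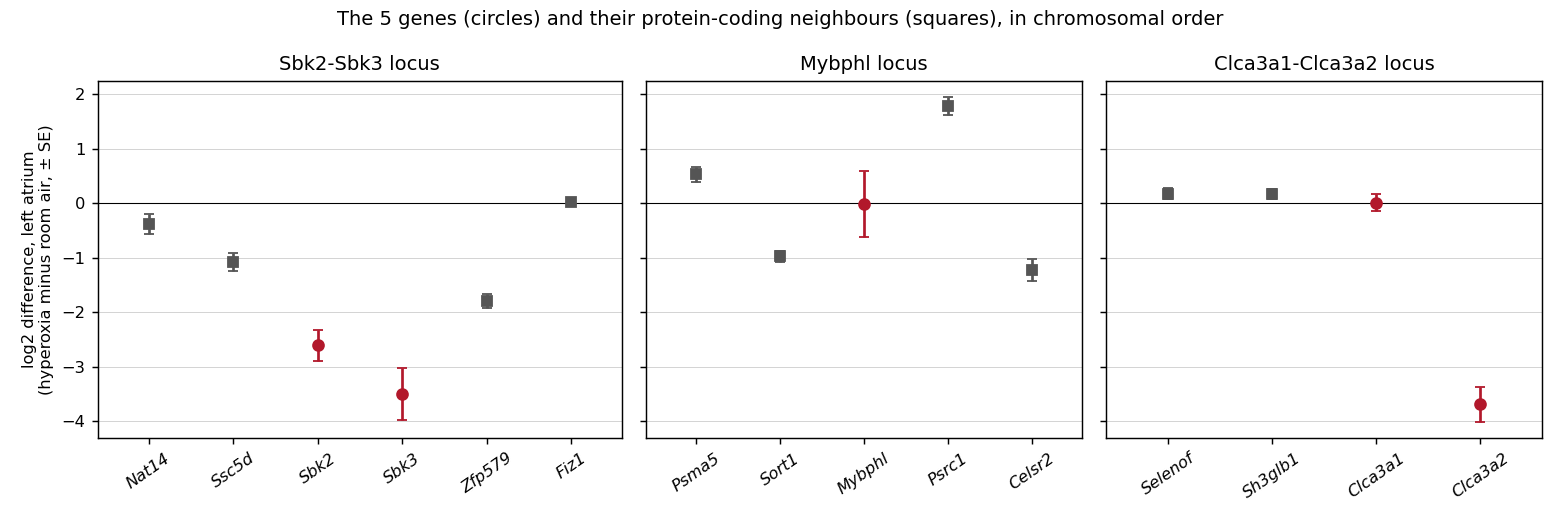
Log2 difference of hyperoxic minus room-air left atrium (vertical, ± SE) for the 5 genes (circles) and their nearest protein-coding neighbours that were tested (squares), in chromosomal order at each of the 3 loci. Sbk2, Sbk3 and Zfp579 lie at -2.61, -3.50 and -1.80 beside each other, while Clca3a2 at -3.69 lies beside Clca3a1 at 0.01. Clca3b and Clca4b, beyond Clca3a2, were too low to be tested and are not drawn.

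Of the remaining members of the 3 families, 4 were expressed highly enough to be tested. Sbk1, the remaining SBK kinase, had 19.8 ± 3.92 CPM in hyperoxic atria, against 35.6 ± 4.51 CPM in room-air atria, and fell by 0.84 on the log2 scale (SE 0.16, adjusted p = 0.00024, edgeR). That call was lost with length slope and Y-linked share as covariates (log2 -0.44, adjusted p = 0.16). Sbk1 did not differ by the test between left atrium and left ventricle in room air (log2 -0.16, SE 0.16, adjusted p = 0.42, edgeR). Mybpc3, the cardiac myosin-binding protein C, was 3.03-fold lower in left atrium than in left ventricle in room air and did not pass for hyperoxia in the atrium (log2 0.14, SE 0.10, adjusted p = 0.27, edgeR). Mybpc2, the fast skeletal form, rose in hyperoxic atria (9.77 ± 1.33 against 5.32 ± 0.614 CPM in room-air atria, adjusted p = 7.1e-06, edgeR) and fell in the ventricle (17.4 ± 2.7 CPM in hyperoxia against 29.7 ± 3.18 CPM in room air, adjusted p = 0.00063, edgeR).

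Mybph and Mybpc1 were too low to be tested. In the CLCA family Clca2 was tested and did not pass in the atrium (0.152 ± 0.0921 CPM in hyperoxia against 0.298 ± 0.102 CPM in room air, log2 -0.92, SE 0.49, adjusted p = 0.13, edgeR). Clca3b, 86.9% identical to Clca3a2 in its coding sequence, had 3 counts over the hyperoxic atria and 13 over the room-air atria, with none in any ventricle. Clca4a had 2 and 6 counts in these atrial groups, Clca1 had 24 and 20, and Clca4b had none in any library.

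Across the 20 libraries the profiles of the genes were compared by the root mean square difference of centred log2 CPM, ranked over 12736 genes with at least 1 CPM in room-air atria. This measure reads the same values that chose the genes and is given as a description. Nearest to Sbk2 were Adcy1, an adenylyl cyclase (0.68), the transcription factor Osr1 (0.74) and Vwc2, which encodes a secreted BMP antagonist (0.75). Adcy1 averaged 10.6 ± 2.61 CPM in hyperoxic atria and 51.9 ± 4.97 CPM in room-air atria, and it was also among the 3 genes nearest to Clca3a2 (1.0), after the cadherin Cdh12 (0.89) and the matrix protein gene Podn (0.97). Among the genes nearest to Sbk3 were Tmem163, a zinc transporter (0.90), and Fgf12 (1.58), whose protein modulates sodium channels.

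Mybphl lay nearest to Fgf12 (0.48), Myl7 (0.56) and Sln, the atrial sarcolipin gene (0.82). Clca3a1 lay nearest to the matrix metalloproteinase Mmp2 (0.19), Bcr (0.20), and Rgs3, a regulator of G-protein signalling (0.20), none of them atrium-restricted. Among the 5 genes, Sbk2 lay closer to Clca3a2 (0.95) than to its neighbour Sbk3 (1.29), and Clca3a2 and Clca3a1 differed by 2.47.

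Lists of related genes gave the setting in the hyperoxic atrium, beside a median log2 difference of -0.06 over all genes tested. Among all genes tested, 19.7% passed as higher and 24.2% as lower, but this balance turned with the setting. Higher genes made up 44.9% of those passing, against 54.6% with a filter of 1 CPM in 5 libraries (3863 higher and 3210 lower) and 54.6% without hyperoxic ventricle 5 (3931 higher and 3263 lower). Of 18 striated muscle kinases tested, 13 fell and 1 rose, while 4 missed the threshold, and the median was -0.49. Those named by smallest p were Pim1, a survival kinase that rose (log2 0.95), and Hunk (-0.76), the cardiac myosin light chain kinase Mylk3 (-0.56) and the calcium/calmodulin kinase Camk2b (-1.22), which fell. Their adjusted p-values in edgeR were 5.1e-07, 1.1e-05, 2.4e-05 and 3.7e-05. With length slope and Y-linked share as covariates 7 of the 18 passed rather than 14. The largest decrease among those named, that of Camk2b, was smaller than the differences of Sbk2 (-2.61) and Sbk3 (-3.50). Sbk2 and Sbk3 were chosen for their atrial pattern and the kinases named by smallest p, so this does not rank them among muscle kinases.

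Of 21 atrial cardiomyocyte genes, 12 fell, 4 rose and 5 did not pass (median -0.57). Fewer passed on the libraries whose Y-linked reads outnumbered Xist, which held only 1 hyperoxic atrium. Those that fell included the connexin Gja5, at 73.2 ± 14.8 CPM in hyperoxic atria against 247 ± 28.8 CPM in room-air atria (adjusted p = 1.3e-09, edgeR), the potassium channel Kcnj5 (log2 -0.76), Ccdc141 (-0.65) and the muscarinic receptor Chrm2 (-1.14). Of 18 atrial and cardiac transcription factors 12 fell, none rose and 6 did not pass (median -0.44). They included Etv1, at 13.7 ± 2.22 CPM in hyperoxic atria against 29.3 ± 4.19 CPM in room-air atria (adjusted p = 8.5e-07, edgeR), Tbx20 (log2 -1.03) and Tbx5 (-1.12).

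Sarcomere lists were split. Of 19 thick filament, M-band and titin-associated genes tested, 5 rose, 6 fell and 8 did not pass (median 0.05). Cmya5, a titin-associated protein gene, fell by 1.40 on the log2 scale and the cytoskeletal Obsl1 by 0.58, while the chaperone Hsp90aa1 rose by 1.21 and the LIM protein gene Fhl1 by 0.99. Of 19 Z-disc and thin filament genes, 7 rose, 7 fell and 5 did not pass (median -0.04), with Ky, a muscle protease-like gene, at 0.590 ± 0.246 CPM in hyperoxic atria against 5.34 ± 0.714 CPM in room-air atria (adjusted p = 5.2e-09, edgeR). Ankrd1, a stretch-responsive titin-associated gene, rose by 1.64, as did Myoz2, a calcineurin-binding Z-disc gene, by 0.92, and the pointed-end cap gene Tmod1 fell by 0.70. Of 21 chloride channels and regulators, 6 fell, 4 rose and 11 did not pass (median -0.19), with the intracellular channel gene Clic5 higher (log2 1.14) and Ttyh3 (-1.27), the chloride-proton exchanger Clcn4 (-0.32) and the volume-regulated channel subunit Lrrc8b (-0.70) lower. With both covariates the thick filament list passed at 5 genes rather than 11 and the chloride list at 5 rather than 10.

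In the hyperoxic ventricle the median was -0.01 over all genes, of which 5.64% passed as higher and 5.28% as lower. The kinases gave 1 higher and none lower of 18, the atrial cardiomyocyte genes 3 higher and 4 lower of 21, and the transcription factors 2 higher and 1 lower of 18. The thick filament list gave 3 higher and none lower of 19, the Z-disc list 4 higher and 1 lower of 19, and the chloride list none higher and 2 lower of 21. These counts depended on the setting. Over 33 other settings, 0 to 3 kinases, 1 to 10 atrial cardiomyocyte genes, 0 to 6 transcription factors, 0 to 5 thick filament genes, 0 to 8 Z-disc genes and 0 to 6 chloride genes passed. The difference between the atrial and ventricular responses was not tested.

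Markers of other cell types differed in the hyperoxic atrium too, in both directions. The 7 fibroblast markers, of which 6 fell and 1 rose, summed to 1900 to 2450 CPM in hyperoxic atria and 3760 to 4350 CPM in room-air atria. The 9 endocardial and blood endothelial markers, of which 8 fell and 1 rose, summed to 766 to 1010 CPM in hyperoxic atria and 1090 to 1360 CPM in room-air atria. The 7 lymphatic markers summed to 103 to 122 CPM in hyperoxic atria and 125 to 142 CPM in room-air atria, with Ccl21a at 0 in both groups, and 3 of the 6 tested fell. The 6 epicardial and mesothelial markers, of which 2 rose and none fell, summed to 471 to 514 CPM in hyperoxic atria and 274 to 436 CPM in room-air atria. The 6 ventricular cardiomyocyte markers, of which 4 fell and none rose, summed to 682 to 1300 CPM in hyperoxic atria and 1170 to 1610 CPM in room-air atria. The 6 smooth muscle and pericyte markers split into 2 that rose and 3 that fell, with sums of 877 to 1250 CPM in hyperoxic atria and 914 to 1090 CPM in room-air atria. The skeletal muscle markers summed to 89.1 to 122 CPM in hyperoxic atria and 83.2 to 94.9 CPM in room-air atria, and the lung and airway markers to 0.535 to 6.36 CPM and 0.202 to 19.1 CPM in these groups. The 7 atrial cardiomyocyte markers summed to 26500 to 50900 CPM in hyperoxic atria and 18500 to 23700 CPM in room-air atria, while 2 of them rose, 1 fell and 4 did not pass (median log2 difference 0.07). The part of these shifts in the levels of Clca3a2, Clca3a1 and the kinases was not tested.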

How the data were processed

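The authors deposited raw read counts per gene symbol, 1 file per library, for 20 libraries in 4 groups of 5, and 0 columns were left unused. Per the labels' protocols a stranded mRNA kit was used. The submitters' processing notes name GRCm38.p6 as the build and Salmon 1.3.0, featureCounts, Subread 2.0.1, STAR 2.7.6a and fastp 0.20.1 as tools. Annotation release, strand setting and treatment of reads that map to several places are not given in the sources used here. Libraries of 1 group differed beyond sampling noise (smallest chi-square per degree of freedom 12.25), so none was a copy of another.

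The counts were tested with edgeR 4.0.16 (R 4.3.3). After filterByExpr and TMM scaling, genes were fitted over all 20 libraries with 1 coefficient per group and robust quasi-likelihood dispersion. Adjusted p-values are Benjamini-Hochberg over the 16598 genes and passed under 0.05. An SE was taken as the size of a log2 difference over the root of its F. CPM were computed on TMM-adjusted totals, and CPM per kb divide them by exon length in GENCODE M21, from which positions also come. DESeq2 1.42.0 was an alternative, and the test was tried on simulated counts.

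The members and lists were chosen with earlier results of these data known. The genes named were the members, their families, the 2 nearest protein-coding genes on each side of each locus, the 3 genes nearest in profile to each member, up to 4 members of each list by smallest p in the atrial comparison, and chamber markers (Myl4 was added after its values were seen). Y-linked share is Y-linked over Y-linked plus Xist reads. Length slope was computed over 11145 genes of at least 5 CPM. Coding sequences and promoters were aligned with Biopython. Promoters are from RefSeq on GRCm38.p6, matched by symbol for all 5 members. Some genes that the rule picks, and some promoter windows, are not reported here.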

Additional observations from a re-analysis of the deposited data

Results flagged for a closer look

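Of 20 sets of 5 values, 1 set for each gene in each group, 1 held a library far from the others. The genes were measured in the same libraries, so these sets are not independent, and the part of chance was not tested. Mybphl had 5.50 CPM in hyperoxic ventricle 1, while the other 4 hyperoxic ventricles held 0.247 to 1.74 CPM. The same ventricle held the most Myl7 of its group, 128 CPM against 2.66 to 48.5 CPM in the others.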

How the results depend on the processing

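In the left atrium Sbk2, Sbk3 and Clca3a2 were lower in hyperoxia under all 32 alternatives (-2.85 to -2.21, -3.76 to -3.20 and -4.16 to -2.99 on the log2 scale). Leaving out 1 library gave -1.08 to -0.63 for Sbk2, -2.45 to -1.75 for Sbk3, -3.96 to -2.11 for Mybphl and -0.99 to -0.07 for Clca3a2 in the ventricle, 7.78 to 9.39 for Mybphl between chambers in hyperoxia, and 926 to 2527 genes passing in the ventricle instead of 1813. Of the hyperoxia effects in the ventricle, Sbk3 and Mybphl did not pass without a filter on low counts (-2.12 and -2.61), on the compared groups alone (-2.13 and -2.64), with length slope (-2.04 and -2.54), Y-linked share (-1.88 and -2.71) or both (-1.88 and -2.57) as covariates, on the 13 libraries with Y-linked above Xist reads (Y-rich; -1.92 and -3.38), or with Myl7 as a covariate (-0.53 and -0.08). Clca3a2 in the ventricle turned to 0.46 with Myl7, and Clca3a1 to -0.14 with length slope and -0.08 with both. Sbk2 passed there without the tilted libraries (-1.07). In the atrium Sbk2 was -2.27 with both covariates and -2.21 on the Y-rich libraries. These held only 1 hyperoxic atrium, the tilted atrium 2, against 5 room-air atria, so atrial values from them describe that 1 library. Mybphl was 0.31 on the Y-rich libraries and -0.24 without the tilted ones. Clca3a1 was 0.41 with both covariates and -0.32 on the Y-rich libraries. Clca3a2 was -3.22 with length slope, -4.16 with Y-linked share, -2.99 with both and -4.16 on the Y-rich libraries. Between chambers Clca3a1 was 0.91 in hyperoxia on the Y-rich libraries, and 1.10 with length slope and 1.08 with both in room air. Genes passing numbered 3569 in the atrium with both covariates. In the ventricle they numbered 1021 without the filter, 200 with Y-linked share, 948 with both, 3305 without the tilted libraries, 277 on the Y-rich libraries, 88 with Myl7 and 2764 with DESeq2. Other reversals in the atrium were Mybpc3 (-0.02), Clca2 (0.39), Sh3glb1 (-0.06) and Selenof (-0.17) with both covariates, Selenof (-0.03) with length slope, Myl7 (-0.42 with length slope, -0.63 with both, -0.47 without the tilted libraries, -0.14 and -0.08 without hyperoxic atrium 2 or 4, and -0.14 to 0.21 leaving out any 1 library) and Myl2 (0.17 without room-air atrium 1, -3.13 to 0.17 leaving out any 1). The cause of these shifts was not tested. At 1 CPM in 5 libraries 42.9% rather than 52.2% of the genes passing between chambers in room air were higher in atrium. Deviations of same-numbered atria and ventricles correlated at r = 0.022 to 0.319 (3 of 9 over 0.1), and differently numbered ones at -0.224 to 0.131. Of 9 atria, 4 correlated best with their own number. Hyperoxic atria and ventricles numbered 1, 2, 4 and 5 matched in whether Y-linked or Xist reads were more. The numbers were not taken as pairs in the main fit, although they may mark the same mice. Replicate number was also used as a block across groups, which joins different mice of the oxygen levels. With that block Sbk3 (-1.92) and Mybphl (-2.36) did not pass in the ventricle, and 7759 genes passed in the atrium and 2596 in the ventricle. A block by number within each oxygen level was fitted for the chamber differences. In hyperoxia it gave 4.17 (Sbk2), 5.37 (Sbk3), 8.24 (Mybphl), 3.32 (Clca3a2) and 1.22 (Clca3a1). In room air it gave 5.96, 7.04, 5.96, 6.64 and 1.39 in the same order. Low counts limit Sbk3, Mybphl and Clca3a2 in ventricles, and whether pups were littermates is not given, so p-values measure the spread between these mice.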
